A study of Rattus norvegicus with 24 samples.

Results

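Ca9, Slc9a4 and Slc16a6 are 3 genes for acid and bicarbonate handling, and they were followed through RNA sequencing of the rat carotid body (CB). They were chosen by symbol, as the rows whose Ensembl identifiers the study's own table of strain differences pairs with these names. They are 3 of 32623 genes counted, of which 1273 could be paired with a symbol. The part of that table read here lists genes that were higher in the hypertensive strain, so the strain difference of the 3 genes was part of their choice. That difference is given below as a description, with no test. The paper also reports genes that were lower in that strain, and these were not read. The comparison of sides did not enter the choice, and it was tested.

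The tissue was the whole CB of male rats of 12 to 14 weeks. The controls were normotensive Wistar Kyoto rats (WKY/NHsd) and the hypertensive animals were spontaneously hypertensive (SH) rats (SHR/NHsd), with 6 rats a strain. The labels name no transgene and no drug treatment in either strain. The left and the right CB of each rat were sequenced separately as polyadenylated RNA, which gave 24 libraries. These are 2 inbred strains, so blood pressure and all other differences between the strains cannot be told apart in this design. In whole tissue, fewer cells of a type and less RNA per cell cannot be told apart either.

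The CB sits at the fork of the common carotid artery and senses oxygen, carbon dioxide and pH of arterial blood. Its glomus cells acidify when carbon dioxide enters and is hydrated to carbonic acid, and they release transmitter onto the carotid sinus nerve. Carbonic anhydrases speed this hydration and the reverse reaction, sodium proton exchangers carry protons out of the cell in return for sodium, and monocarboxylate carriers move lactate and related acids across membranes, in several cases together with a proton. Ca9 encodes carbonic anhydrase 9, a membrane enzyme with its active site on the outside of the cell and a well known target of the hypoxia-inducible factors. Slc9a4 encodes the exchanger NHE4, which is best known from the stomach and kidney. Slc16a6 encodes MCT7, a member of the monocarboxylate carrier family that has been linked to the export of ketone bodies from liver.

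The libraries held between 9198341 and 13655419 counts. The right CB of SH rat 34 stood apart from the others. It held 7849 CPM, counts per 1000000 counts of the scaled library, of Tg, the thyroglobulin gene of the thyroid, against at most 218 CPM in any other library, and its summed level of the glomus cell genes Chga, Chgb and Dbh was 60.0 CPM, against 1115 to 1970 CPM in the other 11 SHR libraries. The study's own table leaves this library out, so the comparisons below rest on 23 libraries, and the library is given on its own. Of 13 glomus markers 4 could be paired with an identifier, Chga, Chgb, Dbh and Ret, and all were present in the 23 libraries, the lowest being Dbh at 10.3 CPM. CPM is scaled with the trimmed mean of M values (TMM) throughout. It is not corrected for gene length, so levels are compared within a gene and not between genes.

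The promoters are shown because Ca9 is known for its response to hypoxia through a site next to its start. The set of RefSeq promoters used here held the sequence for Ca9, there called Car9, and for Slc9a4, and Slc16a6 had no entry in this set. The 250 bases before the annotated start, read on the plus strand of the GRCr8 build, lie at chr5:62558774-62559023 for Ca9 and chr9:50320698-50320947 for Slc9a4. The core letters of the hypoxia response element, ACGTG and GCGTG, were searched on both strands of each window of 300 bases, which also takes in the first 50 bases after the start. The third sequence spans the start of Ca9 at chr5:62559015-62559039, with capitals for its 1 match, ACGTG on the minus strand.
Ca9: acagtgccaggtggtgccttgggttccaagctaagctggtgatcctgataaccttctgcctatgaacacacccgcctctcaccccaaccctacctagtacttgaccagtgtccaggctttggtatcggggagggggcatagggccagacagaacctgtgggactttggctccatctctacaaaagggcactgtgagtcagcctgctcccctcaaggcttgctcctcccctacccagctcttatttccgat
Slc9a4: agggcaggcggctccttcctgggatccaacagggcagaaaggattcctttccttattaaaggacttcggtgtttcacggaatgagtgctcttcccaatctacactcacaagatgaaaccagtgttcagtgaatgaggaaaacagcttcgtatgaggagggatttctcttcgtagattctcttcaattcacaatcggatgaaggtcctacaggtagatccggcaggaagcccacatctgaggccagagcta
Ca9 start: atttccgatgCACGTacagcccgtc
The match covers bases 2 to 6 counted from the start, and overlaps no other match. Among 33469 windows of the same length, 19.3% held ACGTG, 29.7% held GCGTG and 41.6% held either, so a match is common, and it is a description of the letters and not of a bound site. No match was found in the window of Slc9a4, which says only that these letters are not in it. GC content of the 250 bases was 56% for Ca9 and 48.4% for Slc9a4.

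Slc9a4 (ENSRNOG00000015306, on chromosome 9) showed the widest strain difference of the 3 genes, and its libraries did not overlap between strains. In the 12 WKY libraries its level ran from 0 to 2.77 CPM with a median of 1.37 CPM, which rests on 0 to 31 counts. In the 11 SHR libraries it ran from 4.13 to 7.36 CPM with a median of 5.36 CPM, on 37 to 79 counts. Every SHR library thus lay above every WKY library, the lowest of them 1.49 times the highest of WKY. Over all genes tested, 0.926% had every SHR library above every WKY library. With the sides of a rat averaged, WKY rats averaged 1.36 ± 0.581 CPM and SH rats 5.37 ± 0.992 CPM (SD, n = 6 rats each). The fit of the 23 libraries gave a log2 fold change of 1.99 (SE 0.272). That fit takes the CBs of a rat as separate libraries, so its SE is not an error between rats. With counts summed per rat the value was 1.96 (SE 0.242). Strain differences and SEs below come from the fit of libraries unless stated. The left CB of WKY 32 held 0 counts of Slc9a4 while the right CB of the same rat held 12, and its summed glomus genes were at 1165 CPM, within the range of the other WKY libraries.

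Ca9 (ENSRNOG00000017073, chromosome 5) was higher in SHR on average, on few counts and with overlap between the strains. The WKY libraries ran from 0.308 to 2.02 CPM with a median of 0.761 CPM (3 to 20 counts). The SHR libraries ran from 0.894 to 2.85 CPM with a median of 1.68 CPM (10 to 27 counts). Only 2 of the 11 SHR libraries lay above every WKY library. WKY rats averaged 0.901 ± 0.264 CPM and SH rats 1.82 ± 0.575 CPM (SD, n = 6). Of the SH rats 5 of 6 lay above every WKY rat, the exception being SH rat 33 at 1.14 CPM. No share over all genes stands beside this count. The highest was SH rat 34, at 2.68 CPM from its left CB alone. The log2 fold change of Ca9 was 0.92 (SE 0.260) in the fit of libraries and 0.96 (SE 0.279) with counts summed per rat. The mean normalized count of Ca9 was 9.23 in WKY and 17.8 in SHR, so Ca9 passed the filter of a mean above 10 only through the strain in which it is high.

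Slc16a6 (ENSRNOG00000000245, chromosome 10) showed the narrowest difference of the 3 genes. Its WKY libraries ran from 1.55 to 4.41 CPM with a median of 2.96 CPM (16 to 40 counts), and its SHR libraries from 2.32 to 7.71 CPM with a median of 4.29 CPM (22 to 77 counts). The libraries overlapped, since 4 of 11 SHR libraries lay above every WKY library. The rats did not overlap once their sides were averaged. WKY rats lay between 2.52 and 3.14 CPM and SH rats between 3.57 and 5.84 CPM, with means of 2.89 ± 0.212 and 4.46 ± 0.850 CPM (SD, n = 6). The log2 fold change was 0.64 (SE 0.163) in the fit of libraries and 0.63 (SE 0.154) with counts summed per rat. The share of all genes tested in which every SH rat lay above every WKY rat was 3.39%. The highest library, the right CB of SH rat 30, also had the highest Tg of the 23 libraries, at 218 CPM, where the next held 29.3 CPM. Without that rat the log2 fold change of Slc16a6 was 0.54. The part of thyroid tissue in this value was not tested.

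**Figure D1:**
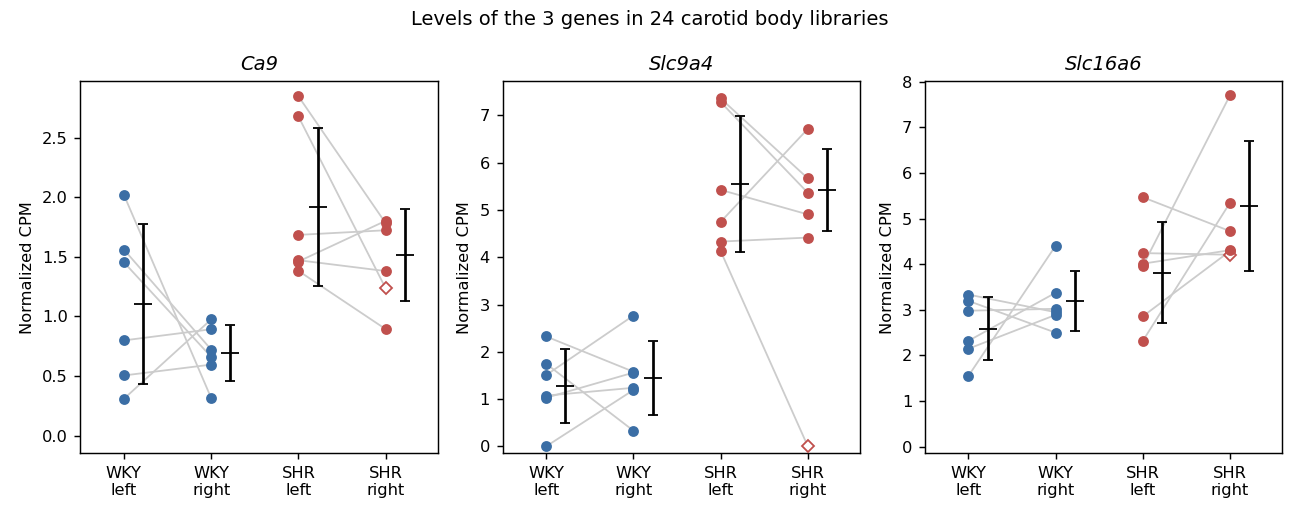
Normalized CPM (vertical axis) of Ca9, Slc9a4 and Slc16a6 in each library by strain and side. Points are libraries, grey lines join the CBs of a rat, black bars are the mean and SD of each group, and the open diamond is the right CB of SH rat 34, which is not in the means. All 11 filled SHR points of Slc9a4 sit above its 12 WKY points, whereas the points of Ca9 and Slc16a6 overlap.

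The spread between libraries was wide for these genes. Their biological coefficient of variation, the variation left after counting error in the fit, was 31.7% for Ca9, 35.0% for Slc9a4 and 23.01% for Slc16a6, against a median of 13.1% over all genes tested. Of the genes tested, 2.93% had a lower mean count than Ca9. In the WKY libraries the observed variation of Ca9 was 58.4%, where counting alone gives 33.03%, and that of Slc9a4 was 55.6%, where counting gives 26.7%. In the SHR libraries Slc9a4 varied by 21.2%, with 13.2% from counting.

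The strains also differed in the levels of glomus genes and of markers of other cell types. Chga and Chgb, which encode granule proteins, were higher in SHR by 0.36 (SE 0.0915) and 0.40 (SE 0.0859) on the log2 scale, and Dbh, the enzyme that makes noradrenaline, by 0.71 (SE 0.140). Ret, a receptor for glial cell line-derived factors, was higher by 0.71 (SE 0.0929), the angiotensin receptor gene Agtr2 by 1.16 (SE 0.126) and the somatostatin receptor gene Sstr1 by 0.41 (SE 0.0693). Of the markers of other cell types that could be paired, Acta2, Tagln and Cnn1 of smooth muscle (3 of 5) were higher in SHR by 0.46 (SE 0.198), 0.52 (SE 0.200) and 0.65 (SE 0.269), and the neuronal Prph (1 of 5) by 0.72 (SE 0.0606). The mast cell genes Cpa3 and Cma1 (2 of 4) were higher by 2.26 (SE 0.487) and 2.07 (SE 0.366), from levels under 1 CPM in WKY, and the macrophage gene Cd163 (1 of 4) by 0.84 (SE 0.264). The adipocyte genes Adipoq and Fabp4 (2 of 5) were higher by 1.59 (SE 0.710) and 0.85 (SE 0.390). Markers of sustentacular, endothelial and skeletal muscle cells could not be paired. All these genes too could only be named through the same part of the study's table, so their direction was fixed by it. The part of cell makeup in the strain differences of Ca9, Slc9a4 and Slc16a6 was not tested. Summed over Chga, Chgb and Dbh, WKY rats had 1163 ± 120 CPM and SH rats 1539 ± 238 CPM (SD, n = 6).

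Expressed per 1000 counts of Chga, Chgb and Dbh in place of all counts, the strain differences of the 3 genes were smaller. Slc9a4 was at 1.16 ± 0.440 in WKY and 3.56 ± 0.646 in SHR, a log2 difference of 1.62, with 6 of 6 SH rats above every WKY rat. Ca9 was at 0.787 ± 0.264 and 1.19 ± 0.325, a log2 difference of 0.59, with 4 of 6 SH rats above every WKY rat. Slc16a6 was at 2.55 ± 0.228 and 2.99 ± 0.811, a log2 difference of 0.23, and 3 of 6 SH rats lay above every WKY rat (SD, n = 6 for each). In this ratio Slc16a6 ran from 2.28 to 2.93 in WKY rats and from 2.21 to 4.41 in SH rats. Slc9a4 ran from 0.559 to 1.75 in WKY rats and from 2.47 to 4.25 in SH rats. The glomus genes were named through the same part of the study's table, and their sum was 1.32-fold higher in SHR, which lowers every ratio there. No share over all genes stands beside these counts of rats. In the right CB of SH rat 34 the ratio was 20.6 for Ca9, 70.1 for Slc16a6 and 0 for Slc9a4. The ratio is a description, and the part of glomus cell content was not tested.

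**Figure D2:**
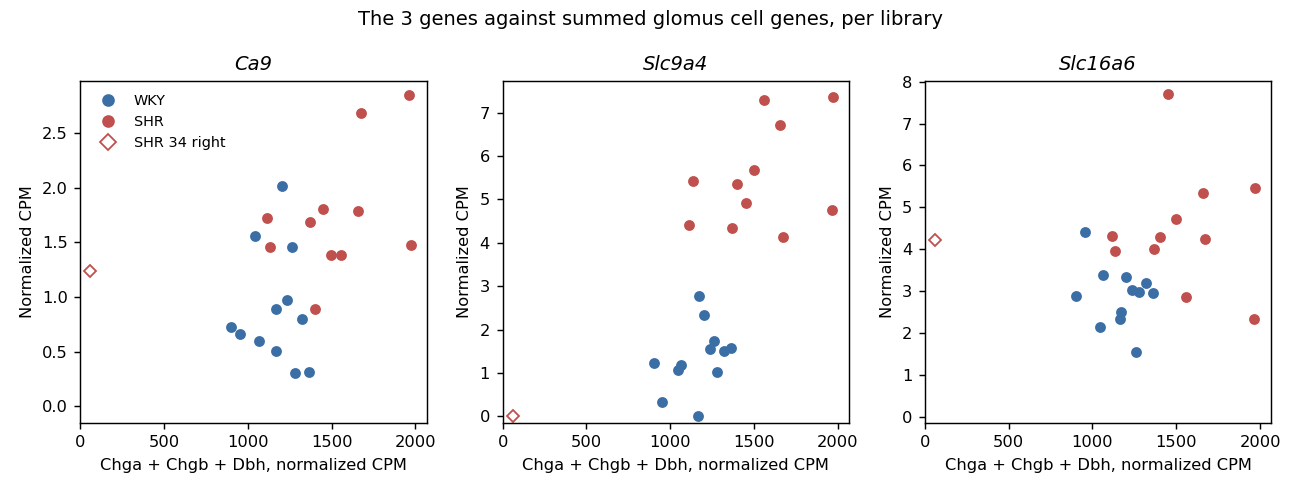
Normalized CPM of each gene (vertical axis) against the summed normalized CPM of Chga, Chgb and Dbh (horizontal axis), 1 point per library. The glomus sums of the strains overlap between 1115 and 1363 CPM, where SHR has only the right CB of rat 37 and the left CB of rat 30. Slc9a4 was at 4.42 and 5.43 CPM in them, and the part of glomus cell content was not tested. The open diamond is the right CB of SH rat 34, at 60.0 CPM. It lies at 0 for Slc9a4 and within the range of the other SHR libraries for Ca9 and Slc16a6.

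The right CB of SH rat 34 took no part in the choice of the genes, and it is 1 library. Slc9a4 had 0 counts in it. Against a floor of 3 counts, or 0.371 CPM, the lowest of the other 11 SHR libraries was at least 11.1-fold higher. That lowest library was the left CB of the same rat, at 4.13 CPM. Ca9 had 10 counts, or 1.24 CPM, below 10 of the 11 other SHR libraries, and the left CB of the same rat held 2.68 CPM. Slc16a6 had 34 counts, or 4.21 CPM, where that left CB held 4.24 CPM. Both were within the range of the other SHR libraries, and also within that of the WKY libraries (0.308 to 2.02 CPM for Ca9 and 1.55 to 4.41 CPM for Slc16a6). Glomus genes were low in the same library, with Chgb at 3.84 CPM and Agtr2 at 0.248 CPM, against at least 501 and 326 CPM in the others. Chga, at 54.1 CPM, was not at its floor. Over all genes tested, 34.3% were lower in this library than in all 11 others, 27.9% were higher, and 1.99% had 0 counts.

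Levels were next compared between the right and left CB of the same rat, in 11 rats with both libraries. For Slc16a6 the right CB was higher in 8 of 11 rats, 4 of 6 WKY and 4 of 5 SH rats. Group means were 2.59 ± 0.696 CPM in WKY left, 3.19 ± 0.659 in WKY right, 3.81 ± 1.11 in SHR left (SD, n = 6 each) and 5.28 ± 1.43 CPM in SHR right (SD, n = 5). The 5 SHR right libraries held 7.71, 4.72, 4.29, 5.35 and 4.31 CPM in rats 30, 31, 33, 36 and 37. The intervals of mean ± SD overlapped for each neighbouring pair in this order, though the step between the SHR sides was larger than the SD of either. The right CB was higher by 0.38 (SE 0.164) on the log2 scale, which did not pass edgeR's quasi-likelihood test after Benjamini-Hochberg adjustment over all genes (adjusted p = 0.955). The paired difference was 0.36 ± 0.53 (SD, n = 11 rats) on the log2(CPM + 0.5) scale, with a two-sided exact sign-flip permutation p of 0.0488, the smallest of the 3 genes tested and not adjusted for them, where the smallest possible was 0.000977. Over all genes 0% passed for side by the adjusted p, and 4.92% (702 genes) had an unadjusted p under 0.05, with the right higher in 2.86%.

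Ca9 pointed to the left and did not pass either. Its means were 0.694 ± 0.234 CPM in WKY right, 1.11 ± 0.672 in WKY left and 1.92 ± 0.663 in SHR left (SD, n = 6 each), and 1.52 ± 0.388 CPM in SHR right (SD, n = 5). The right minus left difference was -0.49 (SE 0.261) by edgeR (p = 0.0736, adjusted p = 0.955), and the right CB was the higher in 5 of 11 rats (exact sign-flip permutation p = 0.229). The paired difference, at -0.26 ± 0.66 (SD, n = 11 rats) on the log2(CPM + 0.5) scale, was smaller, and without WKY 33 the edgeR value was -0.31.

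Slc9a4 had a side difference of 0.06 (SE 0.269) by edgeR (adjusted p = 0.993), with the right CB higher in 6 of 11 rats (exact sign-flip permutation p = 0.773). Its means were 1.28 ± 0.788 CPM in WKY left, 1.44 ± 0.791 in WKY right and 5.55 ± 1.44 in SHR left (SD, n = 6 each), and 5.41 ± 0.869 CPM in SHR right (SD, n = 5). The paired differences of Slc9a4 ranged more widely in WKY, with an SD of 1.08 over 6 rats, than in SHR, with an SD of 0.35 over 5, and the difference between these spreads was not tested. The SE leaves room for a side difference of this gene in either direction.

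**Figure D3:**
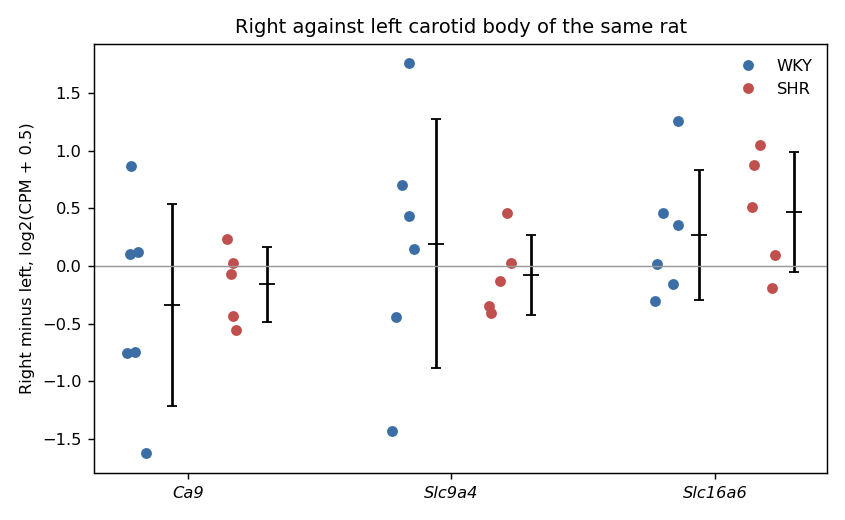
Right minus left difference of log2(CPM + 0.5) (vertical axis) within each of 11 rats, for WKY (6 rats) and SHR (5 rats). Points are rats and black bars are the mean and SD. The points of Slc16a6 lie above 0 in 8 of 11 rats, and those of Ca9 and Slc9a4 lie on both sides of it.

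Whether the strain difference depended on side was tested as an interaction. It was 0.32 (SE 0.526) for Ca9, -0.22 (SE 0.555) for Slc9a4 and 0.17 (SE 0.333) for Slc16a6 on the log2 scale, as SHR minus WKY of the right minus left differences. None passed edgeR's test (adjusted p = 0.999 for each), nor the exact permutation test over 462 splits of the rats (p = 0.680, 0.606 and 0.556), whose smallest possible p was 0.00216. Without SH rat 30 the interaction of Slc16a6 was 0.00427, and without WKY 33 that of Ca9 was -0.0783. Over all genes 0 passed by edgeR and 438 (3.07%) had an unadjusted p under 0.05. On each side alone the strain difference of Slc9a4 was 2.10 (SE 0.412) on the left and 1.87 (SE 0.321) on the right.

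Other genes of the same functions were read from a list of 116 carbonic anhydrases, proton exchangers, bicarbonate and monocarboxylate carriers, Slc26 anion exchangers, proton pumps and acid sensors. Only 11 could be paired with an identifier, the 3 genes above and 8 others, so the levels of the remaining 105 are not analysed here. The part of the pairing table read here holds genes higher in SHR. The direction of the 8 is therefore fixed by it, their median lies above 0 by it and the number that pass is shaped by it. None of these says anything about the group. Of the 8, 2 passed edgeR's strain test, both higher, against 20.1% of all genes tested that passed in either direction and 10.2% that passed upward. The median log2 fold change of the 8 was 0.44, against 0.0057 over all genes.

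Slc16a10, a carrier of aromatic amino acids in the same family as Slc16a6, rose from 10.8 ± 2.83 CPM in WKY to 16.4 ± 1.60 CPM in SHR (SD, n = 6), a log2 fold change of 0.59 (SE 0.129). Slc26a8, an anion exchanger known from sperm, rose from 6.87 ± 0.913 to 8.75 ± 1.56 CPM, by 0.39 (SE 0.123). The 6 that did not pass had log2 fold changes of 0.28 to 0.61. They are Slc4a8, the sodium-driven chloride bicarbonate exchanger, at 11.2 and 15.6 CPM, Slc9b2, a sodium proton antiporter, at 0.952 and 1.42 CPM, Kcnk15, a potassium channel of the TASK group, at 9.98 and 12.7 CPM, and the acid-sensing channel genes Asic1 at 13.5 and 16.4 CPM, Asic2 at 6.75 and 8.38 CPM and Asic4 at 1.05 and 1.56 CPM, WKY first. Between sides 0 of the 11 passed by the adjusted p (lowest 0.955), and 1, Slc16a6, had an unadjusted p under 0.05.

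The 11 genes were also read in the right CB of SH rat 34. Slc9a4, Slc16a10, Slc4a8 and Kcnk15 were each at 0 counts, Asic2 had 2 counts and Asic1 had 14, and these 6 lay below all other SHR libraries. Ca9, Slc16a6, Asic4, Slc9b2 and Slc26a8 lay within the range of the others, and 0 lay above it. Of all genes tested, 34.3% lay below all other SHR libraries in this library, 27.9% lay above them and 1.99% had 0 counts. For Slc16a10, Slc4a8 and Kcnk15 the lowest of the other SHR libraries were at 10.8, 8.94 and 8.99 CPM.

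**Figure D4:**
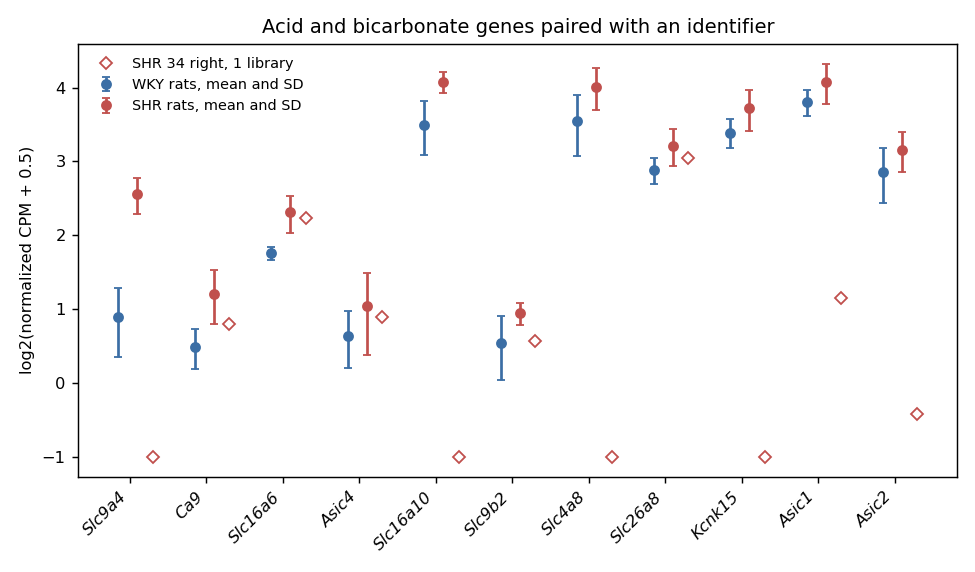
Levels as log2(normalized CPM + 0.5) (vertical axis) of the 11 acid and bicarbonate genes paired with an identifier, in order of their strain difference. Filled points and bars are the mean and SD over 6 rats a strain, and open diamonds are the right CB of SH rat 34, where Slc9a4, Slc16a10, Slc4a8 and Kcnk15 are at 0 counts.

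Genes beside each of the 3 on its chromosome were described next, as the 5 genes tested on either side in the order of the count table. The named genes among them lie on the same RefSeq chromosome as the member. Around Slc9a4, 5 of 10 genes passed the strain test, 4 of them higher in SHR and 1 lower, against 20.1% of all genes tested. Il18rap and Il18r1, which encode the subunits of the interleukin 18 receptor, rose from 142 ± 10.2 to 254 ± 31.7 CPM and from 6.26 ± 1.06 to 11.2 ± 1.06 CPM (SD, n = 6), by 0.81 (SE 0.0725) and 0.82 (SE 0.114) on the log2 scale. In both, 6 of 6 SH rats lay above every WKY rat, as in 3.39% of all genes tested. Il1rl2, the receptor of interleukin 36, rose from 0.575 ± 0.257 to 2.29 ± 1.03 CPM, by 1.99 (SE 0.346), on 1 to 55 counts. Il18rap was also low in the right CB of SH rat 34, at 1.11 CPM against at least 202 CPM in the other SHR libraries. Around Ca9 2 of 10 passed, both higher, near the share of all genes, among them the tropomyosin gene Tpm2 from 123 ± 23.01 to 176 ± 28.8 CPM (0.52, SE 0.115), while Cd72, a B cell gene, did not pass at 0.85 (SE 0.370). Around Slc16a6 2 of 10 passed as well, Fam20a higher by 0.33 (SE 0.101) and ENSRNOG00000004040 lower, from 188 ± 18.0 to 91.8 ± 9.40 CPM (SD, n = 6), by -1.02 (SE 0.0656). Named neighbours come from the same part of the study's table, with genes higher in SHR, whereas the counts of 10 hold unnamed genes too.

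**Figure D5:**
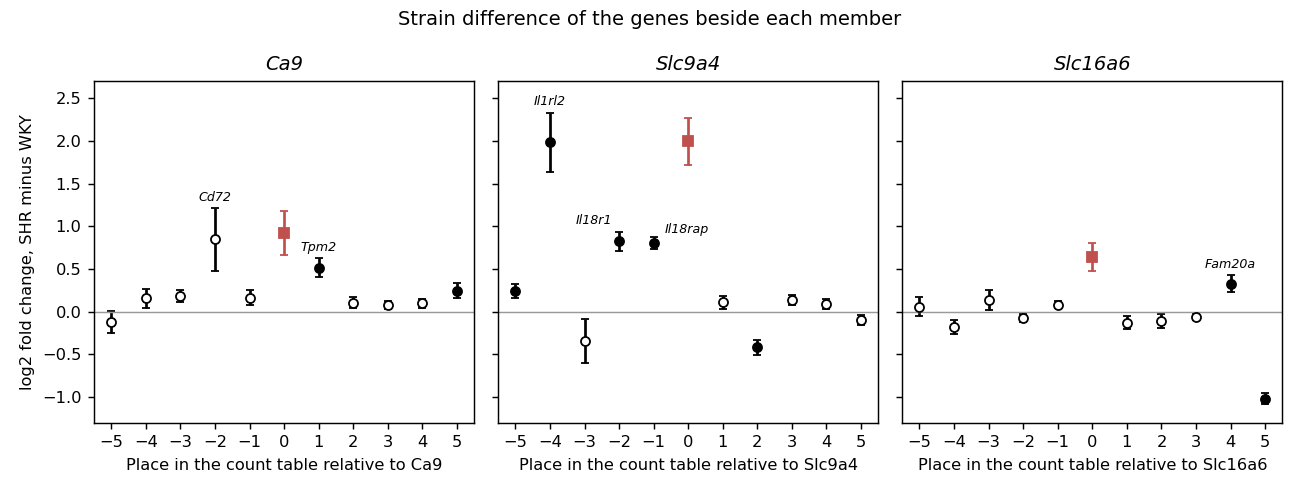
Log2 fold change, SHR minus WKY (vertical axis, with SE), of the 5 tested genes on each side of each member in the order of the count table (horizontal axis). Red squares are the members, filled points passed the strain test and open points did not. The named genes Il1rl2, Il18r1 and Il18rap lie within 4 places of Slc9a4 and were higher in SHR, at 1.99, 0.82 and 0.81.

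The 3 genes were alike to different degrees from library to library. Over the 23 libraries, which share the strain difference, Pearson's r of log2 CPM was 0.642 between Ca9 and Slc9a4, 0.473 between Slc9a4 and Slc16a6 and 0.229 between Ca9 and Slc16a6. With the mean of each strain and side removed these values were 0.330, -0.0962 and -0.136. The named genes most like Slc9a4 were Mocs1, a gene of molybdenum cofactor synthesis (r = 0.891), the envoplakin gene Evpl (0.869) and Mlf2 (0.855), of which Mocs1 lies on chromosome 9 as Slc9a4 does. Those most like Ca9 were the homeobox gene Barx1 (0.824), Plekhg6 (0.769) and the adenosine receptor gene Adora2b (0.764), and with group means removed their r was 0.699, 0.582 and 0.544. Those most like Slc16a6 included Arfgap2 (0.740) and Mettl2 (0.738), of which Mettl2 lies on chromosome 10 as Slc16a6 does. These are descriptions over 23 libraries of 12 rats, chosen as the highest among the genes with a symbol.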

How the data were processed

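Polyadenylated RNA of left and right CBs from 6 WKY and 6 SH rats was sequenced from stranded libraries. The authors aligned the reads with STAR, used featureCounts for counting. The deposited table holds unnormalized counts for each Ensembl identifier. Tool versions, build, annotation and strand setting are not given in the sources used here. Symbols came from the identifiers in the part of the study's table read here. The members and gene lists were chosen with earlier results of these data known. Named were the 3 members, every list gene with an identifier, 6 glomus genes, named neighbours among the 5 tested on each side, and the 3 named genes most like each member by Pearson's r. One gene like Slc16a6 is not reported here.

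The main fit was edgeR 4.0.16 in R 4.3.3 (TMM, robust quasi-likelihood test, side and strain) on 23 libraries and 14258 genes whose normalized count averaged above 10, with Benjamini-Hochberg adjustment at 0.05. Exact tests over rats used log2(CPM + 0.5) and are two-sided. Alternatives used DESeq2 1.42.0 and limma 3.58.1, other filters, libraries and blocks, and left out each rat. Replicates are separate rats, and the CBs of a rat share the animal, which the main fit does not model. No pair of libraries agreed within sampling noise (276 pairs, lowest chi-square per degree of freedom 4.97). Totals were 9198341 to 13655419 counts, so genes under about 10 counts are imprecise, and intervals and floors cover counting error only. Left and right CBs pair by animal, and their deviations from group means correlated with a median of 0.116 over rats.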

Additional observations from a re-analysis of the deposited data

Results flagged for a closer look

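Among all 6 SHR right libraries, 2 values stood apart from the rest of their group by Dixon's test, of 21 groups tested. Chance marks about 1 in 20 groups. In SH rat 34 the right library had 0 CPM of Slc9a4, where the gap to the nearest library was 0.657 of the group's range, over the critical 0.625. In SH rat 30 the right library had 7.71 CPM of Slc16a6, where the gap was 0.673 of the range. Tg stood at 218 CPM there. The right library of SH rat 34 held 7849 CPM of Tg beside 4.21 CPM of Slc16a6.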

How the results depend on the processing

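Of 254 alternative values, 243 kept their direction and, where they have a test, their side of its threshold, 5 moved and 6 reversed. The strain differences of the 3 genes were given no test and were judged by direction and size. These strain differences stayed positive under every alternative run, at 0.59 to 1.09 for Ca9, 1.62 to 2.31 for Slc9a4 and 0.23 to 0.72 for Slc16a6 (log2), where 0.23 is the ratio to Chga, Chgb and Dbh. Genes called between strains numbered 2863 of 14258 tested. They were fewer where the rat was taken into account, at 2041 of 15130 with counts summed per rat. With limma and the rat as a block they were 2299 of 14258. They numbered 1483 with all 24 libraries, 1568 with the replicate block, 1270 on the left alone and 838 on the right alone. Leaving out a rat gave 2193 to 2831. The causes were not tested. The side difference of Slc9a4 reversed to -0.0818 with all 24 libraries and to -0.0406 in SHR alone, and ran from -0.0468 to 0.165 without a rat, below 0 without WKY 32 (-0.0321) or WKY 41 (-0.0468). The side difference of Ca9 ran from -0.60 (without WKY 37) to -0.31 (without WKY 33). Leaving out a rat took the interaction of Ca9 from -0.0783 (WKY 33) to 0.62 (WKY 37), that of Slc9a4 from -0.53 (WKY 36) to 0.0185 (WKY 41) and that of Slc16a6 from 0.00427 (SHR 30) to 0.39 (WKY 36). None of these side and interaction values passed the test, and 0 genes passed for side or interaction under any alternative run. Of the 8 other list genes, 2 passed between strains, 4 without WKY 33 or SHR 33, 1 without WKY 32 or SHR 31, 1 with all 24 libraries, with counts summed per rat, on the right alone or with the replicate block, and 0 on the left alone. Ca9, Slc9a4 and Slc16a6 are left out of these counts, since their choice used the strain difference. On the left alone it was 0.78 (SE 0.400) for Ca9 and 0.55 (SE 0.263) for Slc16a6. On the right alone it was 1.09 (SE 0.336) and 0.72 (SE 0.214). With the replicate block it was 0.85 (SE 0.359) and 0.46 (SE 0.223). Each of these SEs was larger than that of the same gene in the main fit.

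Rat numbers 33, 34, 36 and 37 occur in both strains and do not pair the rats (correlations -0.226 to 0.0538). With that replicate block the strain differences were 0.85 for Ca9, 1.91 for Slc9a4 and 0.46 for Slc16a6. With the rat as a block the side differences were -0.36, 0.05 and 0.41 (edgeR adjusted p = 0.732 for Slc16a6), and the block changed no call on side. The side difference of Ca9 in WKY alone was not run, since its mean count there is under the filter. Depth limits Ca9 most, at 3 to 27 counts a library.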
